A study of Rattus norvegicus with 4 samples.

Results

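The genes described here encode the respiratory chain and ATP synthase of the inner mitochondrial membrane, measured in rat skeletal muscle on 4 arrays, 1 for each of 4 groups. They were taken by gene symbol, as the probe sets whose platform symbol begins with Ndufa, Ndufb, Ndufc, Ndufs, Ndufv, Uqcr, Cox4 to Cox8 or Atp5, or is Sdha, Sdhb, Sdhc, Sdhd or Cyc1. In this way 97 probe sets with 1 symbol were found, which stood for 87 of the 14217 genes with 1 symbol on the array, and for a gene with several the probe set brightest on average over the 4 arrays was used. Another 6 probe sets that matched carried several symbols and name no gene here. Of the 87 genes, 85 lay above the floor of 30.1 signal units on at least 1 array and were compared, among 10091 genes in all, while Cox6b2 and Cox7b2 lay under it on all 4 arrays. Of the 85, 75 encode subunits: 34 of complex I, 4 of complex II, 8 of complex III, 14 of complex IV and 15 of complex V. The other 10 are 6 assembly factors of complex I, the complex V inhibitor Atp5if1, the pseudogene Cox6c-ps1, and the related genes Cox7a2l and Ndufa4l2.

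All animals were of the F344/DuCrlCrlj strain, and the groups were sham, ischemia, ischemia + ES and ischemia + exercise. ES is electrical stimulation that contracts the muscle through its nerve, in a rat model of intermittent claudication, walking pain from poor blood supply. Ischemia was common to 3 groups, and the sham array was the only one without it. No label states the age or number of the animals, whether RNA was pooled, which muscle was sampled or when. Because each group is 1 array, nothing here is checked by replication, no p-value was computed, and every ratio compares 2 arrays and not 2 conditions. The comparisons also share arrays, so that a deviation of the ischemia array enters 3 of them.

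The respiratory chain passes electrons from NADH (complex I) and succinate (complex II) through complex III and cytochrome c to complex IV, which reduces oxygen, and complex V uses the proton gradient built on the way to make ATP. Complexes I, III, IV and V also hold subunits encoded in mitochondrial DNA, whereas the genes followed here are nuclear. Skeletal muscle, above all its oxidative fibres, expresses the chain at a high level, and some subunits of complex IV exist as a form found in most tissues and a form typical of heart and skeletal muscle.

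Differences on the log2 scale are given as ratios of floored signals, so that 0 is no difference and 1 is 2-fold. The skeletal muscle markers fitted the labelled tissue, with 5 of 5 measured above the floor, and of 4 cardiac markers Tnni3, Nppa and Ryr2 lay at the floor on all arrays. The remaining cardiac marker, Myh6, was above the floor in sham (56.9) and with exercise (35.9), and under it with ischemia and ES. The 18 hybridisation controls are probe sets for a few bacterial and phage RNAs added at fixed amounts. Several probe sets read the same RNA, so the 18 values are not independent. The controls give a measure of the spread from hybridisation on. They do not measure differences in sampling, RNA quality or labelling. The controls had a median log2 ratio of -0.01 for ischemia against sham, 0.09 for ES against ischemia and 0.01 for exercise against ischemia. Their median was 0.10 for ES against exercise, 0.11 for ES against sham and -0.01 for exercise against sham. The actin signal ratio of 3' over 5' probe sets, a sign of RNA quality, was 4.38 on the sham array, 3.81 with ischemia, 5.94 with ES and 4.34 with exercise. The same ratio for GAPDH differed less, at 1.16, 1.04, 1.26 and 1.16 in the same order.

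The ES array held the highest signal of nearly every subunit. In all, 72 of 75 subunits had their highest signal with ES, the exceptions being Atp5f1e and Cox5a (highest in sham) and Cox4i2 (highest with exercise). Against ischemia, 83 of 85 members had a log2 ratio above 0, where 56% of all genes compared did, and the members' median was 0.31 beside 0.05 for all genes. Under quantile normalization the members' median was 0.20 beside 0.02, and 69 of 75 subunits were above 0 and 5 below, against 74 and 1 as reported. The shift was small and narrow, with the middle 50% of subunits between 0.25 and 0.42. At 2-fold or more 1 member, Cox7a1, was higher and 0 were lower, where 2.28% and 0.793% of all genes were. At 1.5-fold or more 5 of 85 were higher, a share of 5.88% under the 9.8% of all genes, and 0 were lower against 4.72%. The controls spanned -0.01 to 0.26 in this comparison, and 49 of 75 subunits lay above that span, 25 within it and Cox4i2 under it.

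**Figure D1:**
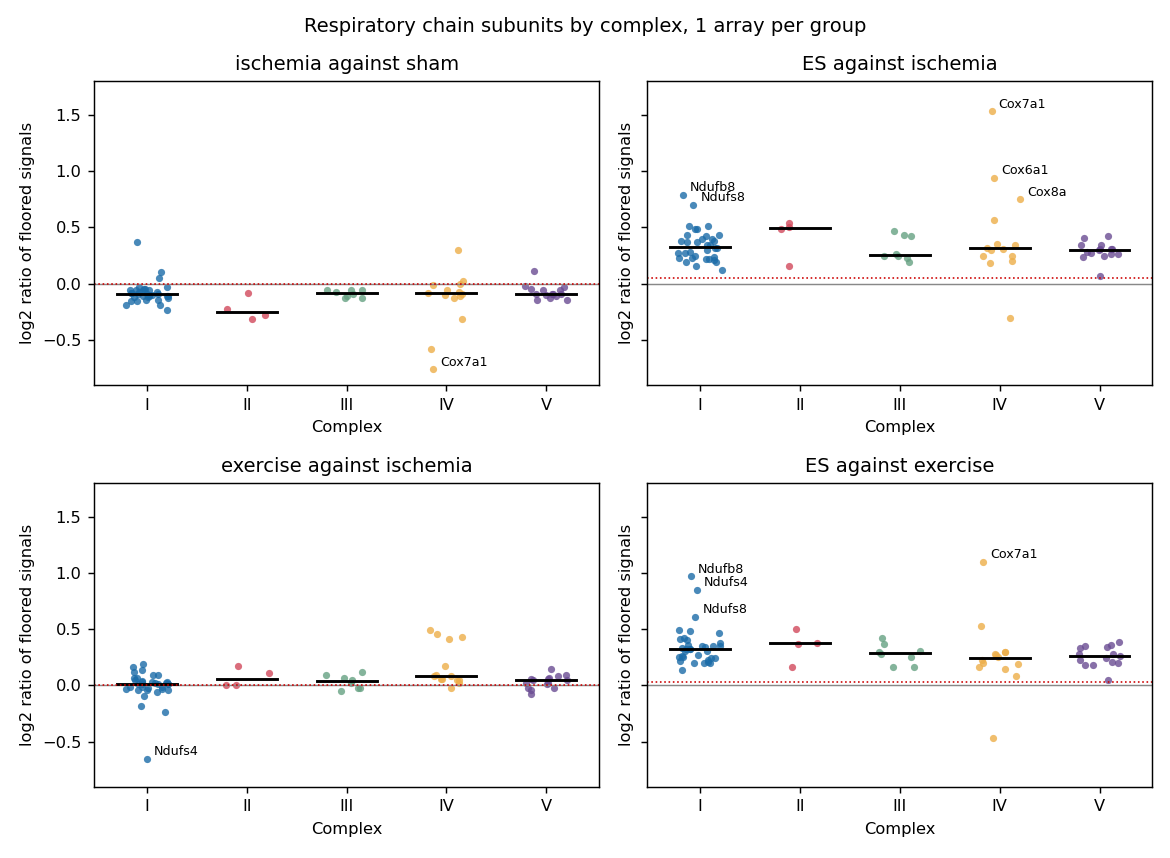
Log2 ratios of floored signals (vertical axis) of the 75 subunits by complex (horizontal axis) in 4 comparisons, 1 point per subunit; black bars are medians per complex, the red dotted line is the median of all genes compared, and names mark subunits at 1.5-fold or more. In ES against ischemia the medians run from 0.26 to 0.49, and in exercise against ischemia from 0.01 to 0.08.

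Most subunits gave bright signals, 71 of 75 having a mean over 2000. The 534 other genes with a mean signal over 2000 had a median of 0.05 for ES against ischemia, beside 0.31 for the 75 subunits. Between 2000 and 5000 signal units the 27 members had a median of 0.37 and the 384 other genes -0.01. Over 5000 units the 45 members had 0.27 and the 150 other genes 0.14, and the 8 hybridisation controls over 2000 units had 0.10. The distance of the members from other genes was therefore smaller among the brightest probe sets. The part of signal strength in the ratios was not tested.

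**Figure D2:**
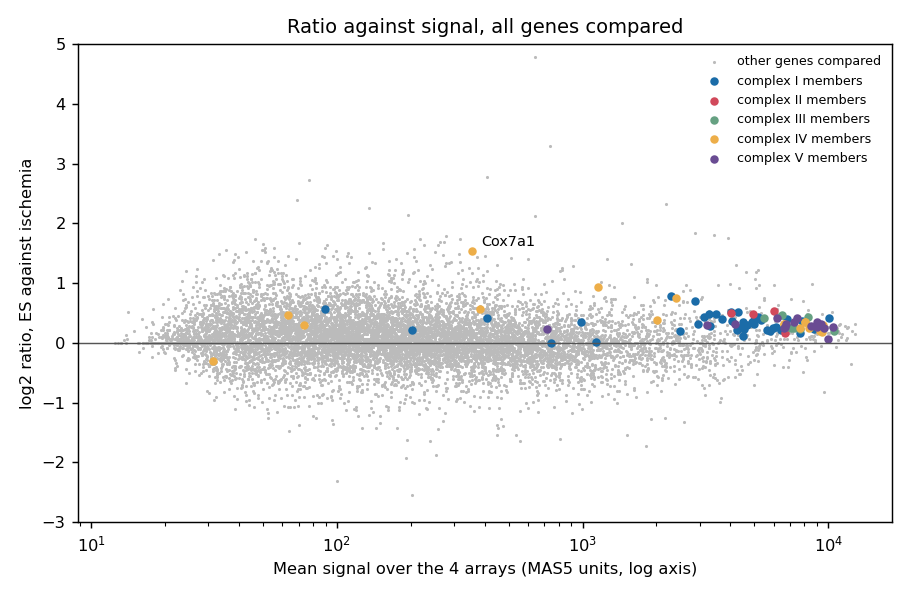
Log2 ratio of ES against ischemia (vertical axis) against the mean signal over the 4 arrays (horizontal log axis, MAS5 units) for all genes compared in grey and the respiratory chain members in colour by complex. The members over 2000 units form a band above 0, and Cox7a1 stands at 1.53.

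Other measures moved together with the ES array. Its actin 3' over 5' ratio of 5.94 was the highest of the 4, as was its GAPDH ratio of 1.26, on a narrower range from 1.04. The 7 endothelial markers compared had a median of 1.06 against ischemia, and 4 of 7 were 2-fold or more higher, where 2.28% of all genes were. Their summed signal was 4124 on the ES array against 2016, 2151 and 2240 with ischemia, sham and exercise. The 5 adipocyte markers compared had a median of 0.00 for ES and 0.61 for exercise against ischemia. The median of 0.00 was set by the floor. For ES 2 genes were above 0 (Cidea at 1.13, Fabp4 at 0.97) and 1 below (Adipoq at -0.34), the others lying under the floor on both arrays. Lep and the brown fat gene Ucp1 lay at the floor on all arrays. The summed adipocyte signal was 4344 with ES and 2100 to 2514 on the other arrays. The fatty acid binding protein gene Fabp4 alone gave 4215 with ES. The part of these values in the shift of the respiratory chain was not tested. In bulk muscle, a change in the number of cells of a type and a change in RNA per cell cannot be told apart.

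Complex I, the NADH dehydrogenase, is built of a matrix arm that takes up electrons and a membrane arm that pumps protons. All 34 subunits compared had a ratio above 0 for ES against ischemia, with a median of 0.33, a lowest value of 0.12 (Ndufv3) and a highest of 0.79 (Ndufb8). The 6 subunits compared of the catalytic core, the part that takes electrons from NADH to the quinone, had a median of 0.38. Ndufs8, an iron-sulfur subunit, had signals of 2606 in sham, 2397 with ischemia, 3888 with ES and 2555 with exercise. Sham, ischemia and exercise lay close together for it and ES stood apart, at 1.62-fold over ischemia and 1.52-fold over exercise. The other catalytic subunits, Ndufs1, Ndufs3, Ndufs7, Ndufv1 and Ndufv2, had log2 ratios of 0.30 to 0.40 for ES against ischemia. The 9 accessory subunits of the matrix arm had a median of 0.38 and the 18 of the membrane arm 0.28. Ndufab1, the acyl carrier protein found in both arms, stood at 0.24.

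Several accessory subunits departed from the rest of complex I. Ndufb8, a membrane arm subunit, had signals of 2146 in sham, 1933 with ischemia, 3348 with ES and 1709 with exercise, the ES array being high and the exercise array the lowest. It was 1.73-fold higher with ES than with ischemia and 1.96-fold higher than with exercise. Ndufs4, a matrix arm subunit needed for a stable complex, had 2178, 2812, 3214 and 1787 in the same order. Here ischemia and ES were the high pair, and sham and exercise the low pair. Ndufs4 was 1.57-fold lower with exercise than with ischemia, and its log2 ratio of 0.37 for ischemia against sham was the highest of all members. Ndufa5, also of the matrix arm, had 3355, 3600, 5132 and 4031, and was 1.53-fold higher with ES than in sham. At the lower end, Ndufb4 of the membrane arm had a log2 ratio of 0.16 for ES against ischemia and 0.10 against sham. Dim probe sets of 2 matrix arm genes disagreed with the chosen ones, at 0.92 in place of 0.12 for Ndufv3 and -0.08 in place of 0.38 for Ndufa9.

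The 6 assembly factors of complex I, which help to build the enzyme and are not part of it, were less uniform. Their median for ES against ischemia was 0.28, with Ndufaf1 at 0.56 and Ndufaf5 at 0.41, while Ndufaf4 stood at 0.01 and Ndufaf8 at -0.01. Ndufaf1 was a dim probe set, with 94.3 signal units in sham, 70.6 with ischemia, 104 with ES and 88.2 with exercise. A dimmer probe set of Ndufaf7 gave -0.10 where the chosen one gave 0.21. Of these 6 genes, Ndufaf4 alone had its highest signal in sham (1257 units) and Ndufaf8 alone with ischemia (790 units).

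Complex II, succinate dehydrogenase, is shared with the citrate cycle. Its 4 genes had the lowest median of the 5 complexes with ischemia against sham (-0.25) and the highest with ES against ischemia (0.49). Sdha, the flavin subunit, had signals of 4307 in sham, 3469 with ischemia, 4898 with ES and 3473 with exercise. For Sdha the exercise array was at the level of ischemia, 0.31 under sham on the log2 scale. Sdhb, the iron-sulfur subunit, had 6098, 5027, 7308 and 5660, with the exercise array between ischemia and sham. Sdhc, a membrane anchor, followed with log2 ratios of -0.22 for ischemia against sham and 0.49 for ES against ischemia. Sdhd, the other anchor, moved less, with -0.08 and 0.16, and its other probe set gave -0.14 and 0.22.

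Complex III carries electrons to cytochrome c. Its 8 subunits compared had a median of 0.26 for ES against ischemia, all above 0, from 0.19 (Uqcr10) to 0.47 (Uqcrc1), and under quantile normalization the median was 0.10. Uqcrc1, a core protein, had signals of 6253 in sham, 5727 with ischemia, 7937 with ES and 5947 with exercise. Cyc1, the cytochrome that passes electrons to cytochrome c, stood at 0.42, and Uqcrfs1, the iron-sulfur protein, at 0.23. The accessory subunits Uqcrq, Uqcr11 and Uqcrh were at 0.43, 0.25 and 0.25. For Uqcrc2, the other core protein, the chosen probe set gave 0.26 and a dimmer one -0.05, and against exercise the pair went opposite ways, with 0.31 and -0.32.

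Complex V, ATP synthase, had the narrowest middle 50% of ratios of the 5 complexes for ES against ischemia. Its 15 subunits had a median of 0.30 for ES against ischemia, with that middle 50% between 0.26 and 0.33. Under quantile normalization the median of complex V, Atp5if1 included, was 0.14 in place of 0.29. Of the catalytic head, Atp5f1a and Atp5f1b, the alpha and beta subunits, stood at 0.26 and 0.25, Atp5f1c at 0.26 and Atp5f1d at 0.42. Atp5f1e, the smallest head subunit, had the lowest ratio of complex V at 0.07, with signals of 10235 in sham, 9644 with ischemia, 10143 with ES and 9809 with exercise. The 4 peripheral stalk genes Atp5pb, Atp5pd, Atp5pf and Atp5po, which hold the head against rotation, ranged from 0.27 to 0.41. Atp5mc3, a gene for the rotating ring, stood at 0.34. The 5 membrane accessory genes ranged from 0.24 to 0.31, among them Atp5me, which had the highest ratio of complex V for ES against sham (0.42). Atp5if1, whose product inhibits ATP hydrolysis by the enzyme, was highest in sham and not with ES, with signals of 784 in sham, 618 with ischemia, 724 with ES and 738 with exercise. A dimmer Atp5if1 probe set had a log2 ratio of -0.18 for ES against ischemia, where the chosen one had 0.23. For Atp5po a probe set near the floor gave 0.05 where the chosen one gave 0.41.

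Complex IV, cytochrome c oxidase, had the widest range of ratios. Its 14 subunits had a median of 0.31 for ES against ischemia, close to the other complexes, but a range from -0.30 to 1.53, and 3 of the 5 members at 1.5-fold or more belonged to it. Under quantile normalization its median, related genes included, was 0.18 in place of 0.32. Several subunits were close to the median: Cox4i1, Cox5b, Cox6b1, Cox7b and Cox7c stood between 0.30 and 0.35, Cox6c at 0.18 and Ndufa4, once counted in complex I, at 0.25. Cox5a had 423 signal units in sham, 283 with ischemia, 421 with ES and 397 with exercise, so that the ischemia array was low and the other 3 close together. Its mean signal of 381.2 was low beside 8050.4 for Cox5b. Cox4i2, an oxygen-sensitive isoform found mainly in lung, was near the floor of 30.1, above it at 37.1 with ischemia and 41.7 with exercise and under it in sham and with ES. It was at least 1.23-fold lower with ES than with ischemia, as a bound set by the floor.

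Cox7a1, the heart and skeletal muscle form of subunit 7a, differed most of all members. Its signals were 347 in sham, 205 with ischemia, 592 with ES and 276 with exercise, so that all 4 arrays were apart, ES high and ischemia low. It was 1.69-fold lower with ischemia than in sham, 2.89-fold higher with ES than with ischemia, 2.14-fold higher than with exercise and 1.71-fold higher than in sham. With exercise it was 1.35-fold higher than with ischemia and 1.25-fold lower than in sham. It has 1 probe set on the array, so there is no second measurement. That probe set was dim, with a mean signal of 354.9 beside 8318.5 for Cox6a2 and 9226.0 for Cox8b, the muscle forms of subunits 6a and 8. Whether it reads the main Cox7a1 transcript was not tested. Genes of slow fibres, which are rich in mitochondria, were also lowest with ischemia, at a median of -2.77 against sham. Their order on the treated arrays was the opposite of that of Cox7a1, with medians of 0.94 for ES and 2.95 for exercise against ischemia. The part of the fibre types in the Cox7a1 values was not tested.

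For subunits 6a and 8 both forms were measured, and in each pair the form found in most tissues had the higher ratio with ES. Cox6a1, that form of subunit 6a, had signals of 943 in sham, 865 with ischemia, 1656 with ES and 1149 with exercise, ES standing well above the other 3. Cox6a2, the muscle form, had 8168, 7755, 9240 and 8111, with all 4 arrays close together. Cox6a1 was 1.92-fold higher with ES than with ischemia and Cox6a2 1.19-fold, a difference of 0.69 in log2 ratio. Cox8a, the common form of subunit 8, had 2242, 1804, 3044 and 2476 in the same order of arrays. Cox8b, the muscle form, had 8735, 8829, 10175 and 9166. Cox8a was 1.69-fold higher with ES than with ischemia, a log2 ratio of 0.75 beside 0.20 for Cox8b, a difference of 0.55. The same order held for exercise against ischemia, with log2 ratios of 0.41 for Cox6a1 and 0.06 for Cox6a2, and of 0.46 for Cox8a and 0.05 for Cox8b. The probe sets of both muscle forms were over 5000 units, where members and other genes lay closer together, and those of the common forms under it, and the part of this in the isoform differences was not tested. Endothelial markers had a median of 1.06 for ES and 0.15 for exercise against ischemia, the latter below the ratios of both common forms. The part of endothelial cells in the isoform differences was not tested either. Cox7a2l, a relative of subunit 7a that joins complexes III and IV, stood at 0.38 for ES and 0.29 for exercise. The probe set of the common form Cox7a2 carries several symbols and is not used here.

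**Figure D3:**
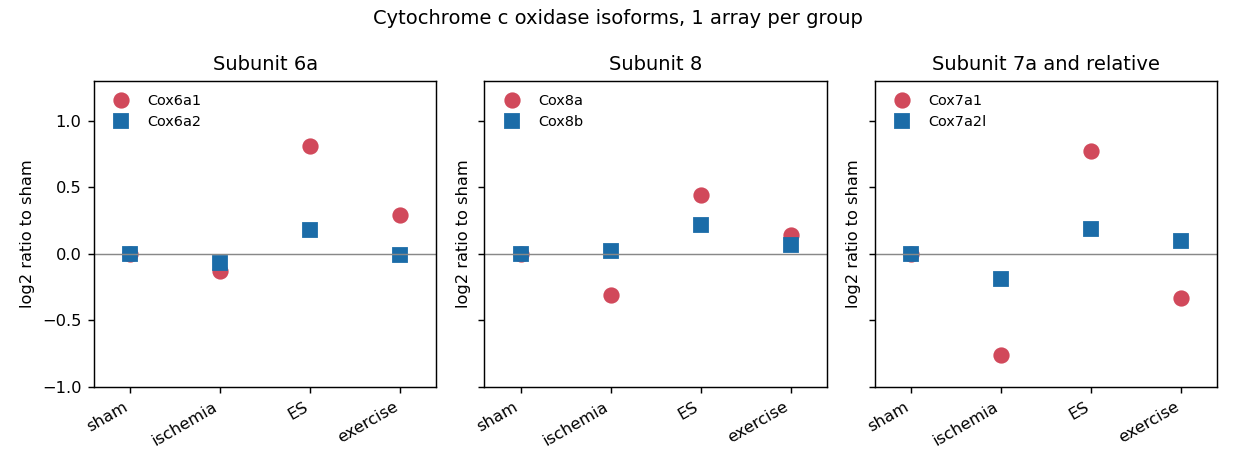
Log2 ratio to the sham array (vertical axis) of genes for complex IV subunits 6a, 8 and 7a and the relative Cox7a2l on the 4 arrays (horizontal axis), 1 point per gene and array and no error bars because there are no replicates. Cox6a1 stands at 0.81 with ES and Cox6a2 at 0.18.

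The promoters of Cox7a1, Cox6a2, Cox8a and Cox8b are shown because these genes of 1 enzyme differed in how they moved, together with that of Sdhb, the gene with the highest ES ratio in complex II. They are RefSeq sequences of build GRCr8, 250 bases before to 50 after the start of the gene, 5′ to 3′ on the gene's strand. Capitals mark matches on either strand to GCGCATGC (NRF1), CCGGAAG (ETS factors such as GABP), AAGGTCA (estrogen-related receptors), AAGATGG (YY1) and the MEF2 motif. NRF1, GABP, estrogen-related receptors and YY1 are known regulators of nuclear respiratory genes, and MEF2 of muscle genes. Sequences lie at chr1:94568966-94569265 (Cox7a1, plus strand), chr1:192219667-192219966 (Cox6a2, minus strand), chr1:213833574-213833873 (Cox8a, minus strand), chr1:205408224-205408523 (Cox8b, minus strand) and chr5:158547684-158547983 (Sdhb, plus strand).
Cox7a1: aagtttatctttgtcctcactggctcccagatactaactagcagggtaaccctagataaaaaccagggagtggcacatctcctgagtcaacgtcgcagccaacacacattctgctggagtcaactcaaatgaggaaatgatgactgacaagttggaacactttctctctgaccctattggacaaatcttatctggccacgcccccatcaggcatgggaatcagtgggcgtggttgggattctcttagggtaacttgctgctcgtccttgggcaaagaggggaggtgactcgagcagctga
Cox6a2: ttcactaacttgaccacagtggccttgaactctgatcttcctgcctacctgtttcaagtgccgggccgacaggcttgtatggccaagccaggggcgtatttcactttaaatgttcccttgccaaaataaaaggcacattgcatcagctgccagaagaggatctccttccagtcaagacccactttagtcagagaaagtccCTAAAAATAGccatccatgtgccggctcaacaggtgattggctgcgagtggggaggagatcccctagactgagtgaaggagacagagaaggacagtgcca
Cox8a: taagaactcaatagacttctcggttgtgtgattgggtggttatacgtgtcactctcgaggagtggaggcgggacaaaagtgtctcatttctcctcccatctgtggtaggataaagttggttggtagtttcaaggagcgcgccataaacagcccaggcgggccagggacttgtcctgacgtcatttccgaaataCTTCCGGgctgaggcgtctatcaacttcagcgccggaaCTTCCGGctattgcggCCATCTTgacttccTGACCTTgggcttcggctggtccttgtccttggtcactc
Cox8b: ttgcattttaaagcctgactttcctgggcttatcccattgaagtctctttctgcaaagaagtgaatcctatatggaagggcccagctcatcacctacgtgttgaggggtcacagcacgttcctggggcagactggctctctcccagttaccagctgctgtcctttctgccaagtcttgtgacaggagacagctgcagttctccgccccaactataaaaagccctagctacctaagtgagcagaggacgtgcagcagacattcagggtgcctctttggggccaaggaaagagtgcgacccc
Sdhb: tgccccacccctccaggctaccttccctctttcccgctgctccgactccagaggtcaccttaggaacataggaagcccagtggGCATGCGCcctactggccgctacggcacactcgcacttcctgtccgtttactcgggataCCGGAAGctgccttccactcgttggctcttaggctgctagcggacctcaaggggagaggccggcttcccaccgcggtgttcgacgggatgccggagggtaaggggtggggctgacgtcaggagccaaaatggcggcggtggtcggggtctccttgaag
In this window Cox8a held 2 ETS matches, 1 estrogen-related receptor match and 1 YY1 match, and Sdhb held 1 NRF1 and 1 ETS match. Cox6a2 held 1 MEF2 match, starting 50 bases before the start, and none of the other 4 motifs, while Cox7a1 and Cox8b held none of the 5. The E-box CANNTG, bound by myogenic factors and not capitalised, occurred 2 times in Cox7a1, 4 times in Cox6a2, 1 time in Cox8a, 2 times in Cox8b and not in Sdhb. A promoter was found for 67 of the 75 subunits. Cox6a1 was not among them, so Cox8a is the only common form of a complex IV subunit shown. The NRF1 letters were present in 10.4% of these 67 and in 2.66% of all 27457 promoters, the ETS letters in 29.9% and 9.22%, the AAGGTCA letters in 16.4% and 4.37%, and the YY1 letters in 26.9% and 7.3%. The MEF2 motif was in 1.49% and 3.37%, and the E-box in 59.7% and 71.6%. These matches describe letters and not binding.

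**Figure D4:**
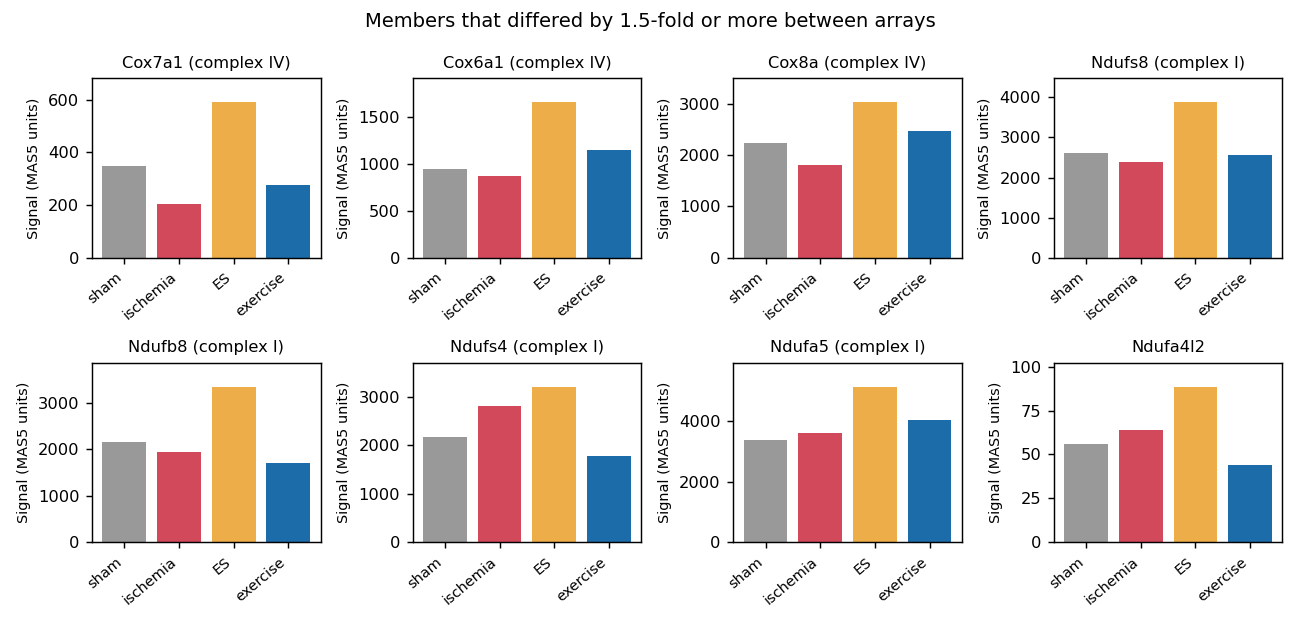
Signal in MAS5 units (vertical axes from 0, a separate scale for each gene) on the 4 arrays (horizontal axis) of the 8 members that differed by 1.5-fold or more in at least 1 comparison, 1 bar per array. The ES array is the highest for all 8, and Ndufs4 has its lowest bar, 1787, with exercise.

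Ndufa4l2, a relative of Ndufa4 induced by hypoxia, was the other member to reach 2-fold, but on a dim probe set. Its signals were 56.1 in sham, 64.0 with ischemia, 88.7 with ES and 44.1 with exercise. The ratio of ES to exercise was 2.01, and in log2 it was 0.94 under quantile and 0.93 under loess normalization, short of 2-fold.

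The ischemia array was compared with sham to see whether the chain was lower in ischemic muscle. Members lay slightly lower, with 75 of 85 below 0 and 10 above, where 50.3% of all genes were above, and a median of -0.09 beside 0.00 for all genes. No member was past 2-fold, where 0.783% of all genes were higher and 0.862% lower. At 1.5-fold 0 members were higher, against 4.95% of genes, and 1 was lower, Cox7a1, against 3.19%. The controls spanned -0.10 to 0.16, and 43 of 75 subunits lay within that span, 30 under it and 2 above. The size of the shift depended on the scaling. Under quantile normalization the members' median was -0.01 and under loess -0.04. Under quantile normalization 30 subunits were above 0 and 42 below, against 7 and 68 as reported, and under loess 13 and 62. The lowest ratios after Cox7a1 were those of Cox5a (-0.58) and, among the others, Ndufaf1 (-0.42), Cox6c-ps1 (-0.36) and Atp5if1 (-0.34). Sdha, Cox8a and Sdhb followed with -0.31, -0.31 and -0.28.

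The exercise array was compared with ischemia in the same way, and the chain differed little. The members' median was 0.04 beside 0.00 for all genes, with 60 of 85 above 0 against 47.7% of genes. No member passed 2-fold, where 1.14% of all genes were higher and 0.872% lower. At 1.5-fold 0 were higher, against 4.02%, and Ndufs4 alone was lower, against 4.24%. Of 75 subunits, 66 lay within the controls' span of -0.08 to 0.30. The 8 controls over 2000 units spanned only -0.07 to 0.09. Quantile normalization left 21 subunits above 0 and 53 below, against 53 and 22 as reported, and loess 39 and 36, so no direction is given for the chain as a whole. The 4 subunits above the span of all 18 controls were of complex IV: Cox5a (0.49), Cox8a (0.46), Cox7a1 (0.43) and Cox6a1 (0.41). Outside the subunits the pseudogene Cox6c-ps1 stood at 0.57, Ndufaf1 at 0.32, Atp5if1 at 0.26 and Ndufa4l2 at -0.54. In complex III the extremes were Cyc1 at 0.12 and Uqcrc2 at -0.05, and in complex V Atp5mpl, a membrane accessory subunit of ATP synthase, was the lowest at -0.08.

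The ES array was also set against the exercise array, which does not involve the ischemia array. The members' median was 0.28 beside 0.03 for all genes, and 81 of 85 were above 0, where 54.5% of genes were. At 2-fold Cox7a1 and Ndufa4l2 were higher, a share of 2.35% beside 2.95% of all genes, and 0 were lower against 1.1%. At 1.5-fold 5 were higher, 5.88% beside 10.5%, and 0 lower beside 4.6%. Here 66 of 75 subunits lay above the controls' span of -0.04 to 0.16. By complex the subunit medians were 0.32 for I, 0.37 for II, 0.29 for III, 0.24 for IV and 0.26 for V. Under quantile normalization 73 of 75 subunits were above 0 and under loess 74. The 4 members below 0 were Cox4i2 (-0.47), Cox6c-ps1 (-0.28), Ndufaf4 (-0.09) and Atp5if1 (-0.03), and Atp5mpl had the highest ratio of complex V at 0.39.

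Both treated arrays were then set against sham. With ES the members' median was 0.23 beside 0.05, with 79 of 85 above 0 against 56.9% of genes. No member passed 2-fold, where 3.78% of genes were higher and 1.06% lower. At 1.5-fold 5 of 85 were higher (Cox6a1, Cox7a1, Ndufa4l2, Ndufb8 and Ndufa5) against 12.4%, and 0 lower against 4.36%. The controls spanned -0.07 to 0.42 in this comparison, and 68 of 75 subunits lay within. However, the 8 controls over 2000 units spanned only 0.08 to 0.17. The 71 subunits over 2000 units had a median of 0.23, above that narrower span. With exercise the members' median was -0.06 beside 0.01, with 16 of 85 above 0 against 51.1% of genes. No member reached 1.5-fold in either direction, where 2.93% of all genes were higher and 1.7% lower, and at 2-fold the shares of all genes were 0.258% and 0.188%. For exercise against sham, 68 of 75 subunits lay within the controls' span of -0.18 to 0.46, but the 8 controls over 2000 units spanned only -0.04 to 0.05. The lowest ratios for exercise against sham were those of Ndufa4l2 (-0.35), Ndufb8 (-0.33), Cox7a1 (-0.33) and Sdha (-0.31). The highest above the floor on both arrays were those of Cox6a1 (0.29) and Ndufa5 (0.27), with Atp5me at 0.13 and Uqcrh at 0.03 leading complexes V and III, and Atp5mpl (-0.13) and Uqcr11 (-0.12) the lowest there. These ratios share the sham array with the comparison of ischemia.

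Genes that work beside the chain were read from lists. For ES against ischemia, 56% of all genes compared were above 0, 9.8% were 1.5-fold or more higher and 4.72% lower. Of 43 assembly factors outside the symbol rule 37 were compared, with a median of 0.23 for ES against ischemia, 30 above 0, 3 at 1.5-fold or more higher and 0 lower. Against sham their median was 0.11 with ES and -0.11 with exercise. Of 17 genes for electron carriers and coenzyme Q synthesis, 15 were above 0 for ES against ischemia, with a median of 0.49, 5 at 1.5-fold or more higher and 1 lower. The 13 citrate cycle genes had a median of 0.41 with 12 above 0, and the 8 partners of ATP synthase, such as the ATP carrier and the voltage-dependent anion channels, a median of 0.28 with all 8 above 0, Atp5if1 being both in this list and a member. For exercise against ischemia the medians of these 4 lists were 0.00, 0.06, 0.01 and 0.11. The 21 mitochondrial gene regulators compared had a median of 0.02 for ES against ischemia, with 12 above 0 and 0 at 1.5-fold. For exercise against ischemia their median was 0.03. Ppargc1a, the coactivator of mitochondrial genes, had signals of 309 in sham, 250 with ischemia, 334 with ES and 467 with exercise, lowest with ischemia and highest with exercise. The related gene Ppargc1b had 159.1, 126.5, 131.5 and 99.1 in the same order, lowest with exercise. Esrrg, an estrogen-related receptor gene of oxidative muscle, had 960, 492, 471 and 912, with ischemia and ES low and sham and exercise high. Esrrg was 2.04-fold lower with ES than in sham.

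**Figure D5:**
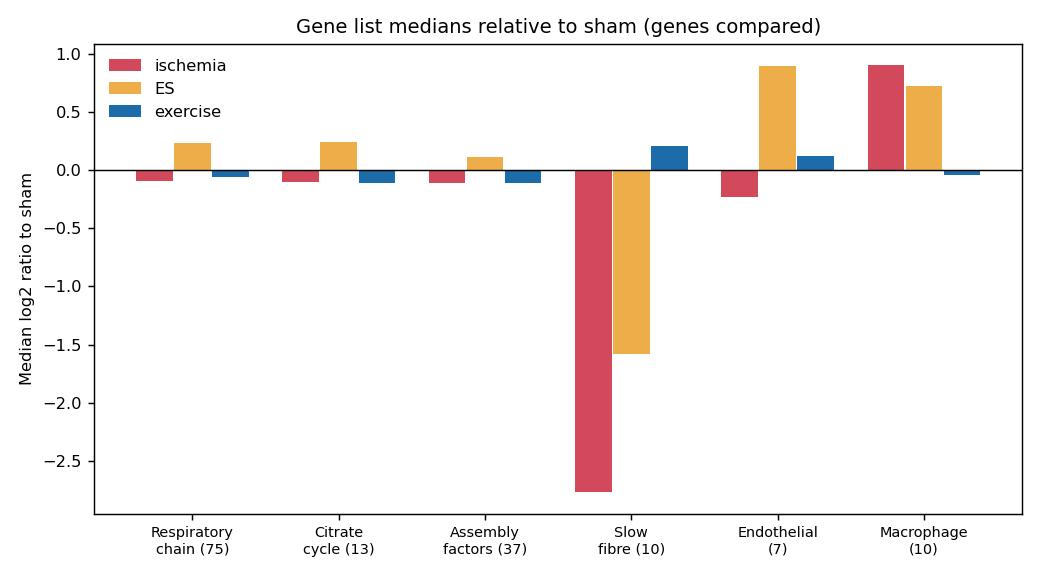
Median log2 ratio to the sham array (vertical axis, bars from 0) of 6 gene lists (horizontal axis, number of genes compared in brackets) on the ischemia, ES and exercise arrays. The respiratory chain stands at -0.09, 0.23 and -0.06, whereas slow-fibre genes stand at -2.77, -1.58 and 0.21.

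The lists of other cell types did not all move with the chain. Slow-fibre genes had summed signals of 66333 in sham, 11603 with ischemia, 23214 with ES and 76603 with exercise, lowest with ischemia and highest with exercise. Tpm3, the slow tropomyosin, had log2 ratios of -4.55 for ischemia against sham and 4.90 for exercise against ischemia, and Casq2, the slow and cardiac calsequestrin, 2.12 for ES against ischemia. Macrophage markers had 1698, 3975, 4754 and 1776, and fibroblast and matrix genes 14405, 26558, 22587 and 14704, high with ischemia and ES and low in sham and with exercise. Bright genes weigh most in such sums, and the macrophage gene Lyz2 alone gave 2073 with ischemia and 2553 with ES. Against sham, 9 of 10 macrophage markers were above 0 with ischemia and 8 with ES. Of the 8 fibroblast and matrix genes, 8 and 7 were. Gpnmb, a gene of lipid-laden macrophages, stood at 2.91 and Col1a1, a chain of type I collagen, at 1.65 for ischemia against sham. Cldn5, an endothelial tight junction gene, stood at 1.46 for ES against ischemia, and Adipoq, the adipocyte hormone adiponectin, at 1.62 for exercise against ischemia. For ES against ischemia, 4 of 10 slow-fibre genes were 2-fold or more higher, where 2.28% of all genes were, and the list median was 0.94. The macrophage median in that comparison was -0.05 and that of fibroblasts and matrix -0.19. The 5 tendon markers had a median of -1.18, with Tnmd at -1.63. The 3 erythroid markers had -0.05, the 2 Schwann cell markers 0.24 and the 5 skeletal muscle markers 0.27. The 5 adipocyte markers had 0.00, a value set by the floor. The part of these lists in the values of the respiratory chain was not tested.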

How the data were processed

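Biotin-labelled cRNA of 4 muscle samples was made with a 3' IVT kit, per the labels' protocols, and measured on 4 single-colour arrays. The authors deposited 1 intensity per probe set on a linear scale, and MAS5 is named, with no version, in the submitters' processing notes. On every array these intensities had a 2% trimmed mean of 150.1, so differences in total mRNA cannot be seen. Symbols came from the platform annotation of 2016, and 87 of 87 member genes matched RefSeq by gene identifier.

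Here each array was scaled to 1 shared 2% trimmed mean, and signals below the 50th percentile of all values (30.1) were raised to that floor before log2 ratios were taken. Genes were counted at 2-fold and 1.5-fold. There are no replicates and the number of arrays limits the precision. Alternatives were quantile and cyclic loess normalization (limma 3.58.1), other floors, thresholds and probe set rules. Centring on other bright genes, adding probe sets with several symbols, the strata by signal and the control spans were chosen after seeing the data. The members and lists were chosen with earlier results of these data known. Named members are those at 1.5-fold or more, the extremes of each complex and comparison, and isoform pairs. From the other lists up to 4 genes past 2-fold are named. Ppargc1a, Ppargc1b and the cardiac gene Myh6, short of 2-fold, were named after their values were seen. Calculations were tested on simulated data.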

Additional observations from a re-analysis of the deposited data

Results flagged for a closer look

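For 2 subunits of complex I the ES and exercise arrays lay on opposite sides of the ischemia array, with at least 1 of them at 1.5-fold or more. Ndufb8 had a log2 ratio of 0.79 with ES and -0.18 with exercise, and 0.97 for ES against exercise. Ndufs4 had 0.19 with ES and -0.65 with exercise, and 0.85 for ES against exercise. Each group is 1 array and each gene 1 probe set, so the difference was not tested, and both ratios to ischemia share 1 array. Under 6 alternatives of normalization, floor and probe set rule, the log2 ratio of ES to exercise was at least 0.97 for Ndufb8 and 0.85 to 0.89 for Ndufs4.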

How the results depend on the processing

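No paired analysis was possible because each group has 1 array. Under quantile normalization the members' median for ES against ischemia was 0.20 in place of 0.31. By complex, related genes included, it was 0.22 (I), 0.35 (II), 0.10 (III), 0.18 (IV) and 0.14 (V), all above 0. In the other 5 comparisons no median moved by more than 0.1 in log2 under the alternatives run, but under quantile normalization the complex III median for exercise against ischemia was -0.06 in place of 0.04, and that of complex IV for ES against sham 0.12 in place of 0.22. At a 1.5-fold threshold the counts were 1 lower for ischemia against sham, 5 higher for ES against ischemia, 1 lower for exercise against ischemia, 5 higher for ES against exercise and 5 higher for ES against sham. At 3-fold, 0 were higher for ES against ischemia or against exercise. For ES against exercise 1 member, in place of 2, was 2-fold higher under quantile or loess normalization or a floor at the 70th percentile. Cox7a1 kept a log2 ratio of 1.53 to 1.56 for ES against ischemia. With a floor at the 30th percentile the Cox4i2 ratio for ES against ischemia was -0.62 in place of -0.30. Dim probe sets such as Cox4i2, Ndufa4l2 and Ndufaf1 lie near the floor.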
